A study of Homo sapiens with 6 samples.

Results

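Genes of fatty acid beta oxidation and of the peroxisome were followed in LNCaP cells, an androgen-responsive line established from a metastasis of human prostate cancer, with and without androgen. A named list set the 42 genes: 18 of mitochondrial oxidation, 10 of peroxisomal oxidation, 3 acyl-CoA synthetases and 11 PEX genes of peroxisome assembly. Of these, 40 had a probe set naming that gene alone and all 40 passed the filter on dim signals, among 14269 genes tested on the array. The expression of SCP2 and PEX13 was not analysed here. All cultures grew in RPMI free of phenol red with a 10% supplement that the labels give as charcoal/dextran (a treatment that strips steroids from serum), for 3 days before stimulation. The DHT group of 3 cultures then received 100 nM dihydrotestosterone, the most potent natural androgen, for 48 h. The control group of 3 cultures was not given DHT, and its vehicle is not named in the labels. The labels call the cultures biological replicates without saying whether they were grown on separate days, so the p-values rest on these 3 arrays per group. Those of limma, the test used for each gene below, also borrow variance from other probe sets of similar signal.

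Beta oxidation shortens a fatty acid by repeated removal of acetyl-CoA. In mitochondria, long chains are activated by acyl-CoA synthetases, enter through the carnitine shuttle (CPT1A, SLC25A20 and CPT2), and pass through dehydrogenation, hydration, a second dehydrogenation and thiolysis, with the electrons of the first step taken up by ETF. Peroxisomes carry out the same chemistry on very long and branched chains with their own enzymes, producing hydrogen peroxide that catalase removes, and the PEX proteins build the organelle and import its enzymes. Prostate cancer cells are known for drawing energy from lipids, and peroxisomal branched-chain oxidation has been much studied in them.

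Of the 6 genes whose transcripts changed and that had a promoter window, 4 are shown, 3 with the sequence marked in capitals and 1 without it. Not shown are CPT1A, with 0 such sequences in its window, and PEX16, with 2. RefSeq promoter sequences on GRCh38.p14 matched 34 of the 42 genes. The 250 bases before the annotated start are given 5' to 3' on the gene's own strand, and capitals mark the GC box GGGCGG on either strand, a sequence that binds Sp1-type factors. HADHA lies on the minus strand at chr2:26244633-26244882, ACAT1 on the plus strand at chr11:108121317-108121566, PEX6 on the minus strand at chr6:42979182-42979431, and PEX10 on the minus strand at chr1:2413828-2414077.

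HADHA: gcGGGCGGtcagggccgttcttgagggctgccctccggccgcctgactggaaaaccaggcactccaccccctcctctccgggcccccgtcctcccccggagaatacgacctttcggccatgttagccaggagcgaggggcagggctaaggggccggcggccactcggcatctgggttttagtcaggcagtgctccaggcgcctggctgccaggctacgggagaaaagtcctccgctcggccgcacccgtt

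ACAT1: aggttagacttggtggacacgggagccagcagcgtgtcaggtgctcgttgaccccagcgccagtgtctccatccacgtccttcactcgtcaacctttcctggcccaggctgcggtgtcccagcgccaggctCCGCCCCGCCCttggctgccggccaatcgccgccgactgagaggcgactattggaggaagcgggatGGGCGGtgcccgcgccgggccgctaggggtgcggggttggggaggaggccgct

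PEX6: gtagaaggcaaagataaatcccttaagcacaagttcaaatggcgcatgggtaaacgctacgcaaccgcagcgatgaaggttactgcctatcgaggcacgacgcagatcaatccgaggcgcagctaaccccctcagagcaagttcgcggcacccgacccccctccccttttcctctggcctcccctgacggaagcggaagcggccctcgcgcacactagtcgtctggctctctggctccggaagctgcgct

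PEX10: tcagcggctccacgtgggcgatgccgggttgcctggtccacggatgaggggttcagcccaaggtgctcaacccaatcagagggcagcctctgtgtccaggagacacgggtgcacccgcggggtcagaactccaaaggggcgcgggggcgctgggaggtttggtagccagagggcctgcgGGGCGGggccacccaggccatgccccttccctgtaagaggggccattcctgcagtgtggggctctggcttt

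A GC box stood in 26 of the 34 windows (76.5%), against 42.6% of all 35116 promoter windows of the same length. The 34 are 1 window per gene, while the 35116 were not limited to the genes tested here or matched for GC content. Whether the difference is particular to these genes was not tested. The median GC content was 65.6% in the 34 windows and 58% over all promoters. PEX6 had no GC box in its window, and ACAT1 had 3, a pair of which share a base. These are matches of letters only. The nuclear receptor half-site AGGTCA stood on either strand in 1 of the 34 windows (that of ACSL5), against 12.1% of all promoters. The androgen receptor half-site AGAACA stood in 3 (PHYH, PEX5 and PEX13), against 12.4%. Of the genes described below as changed, 6 had a window, 4 of them with a GC box and none with either half-site. The windows of HADHA and HADHB, which encode both subunits of one enzyme, overlap by 194 bases on opposite strands, their annotated starts being 307 bases apart.

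Of the 40 genes tested, 2 rose and 6 fell with DHT, with 32 not passing. The signal was compared on a log2(signal + 16) scale, and a gene passed at an adjusted p under 0.05 in limma over all 14269 genes. Over all genes, 12.9% passed, 6.95% higher and 5.91% lower. The median log2 fold change (DHT minus control) of the 40 genes was -0.05, and that of all genes 0.02. The largest fall was -0.66 (PEX6) and the largest rise 0.65 (PEX10). The arrays of the groups did not overlap for 15 of the 40 genes, 4 with DHT above and 11 with DHT below, against 31% of all genes, 16.9% above and 14% below. Because an array holds the RNA of a whole culture, fewer cells expressing a gene and less of its RNA per cell cannot be told apart.

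The arrays were scaled to a common level before deposition, so every direction is relative to the average transcript. Scaled instead to the hybridisation spikes, which are added with the hybridisation mix, the median log2 fold change of all genes was -0.45, and the values given here are relative to such a shift. On that scale 0 of the 40 genes rose and 32 fell (140 and 7442 over all genes), and with equal array medians 1 rose and 4 fell (465 and 677 over all genes), against 991 higher and 843 lower over all genes as deposited. Across probe sets, which are not independent, Pearson's r was 0.973 to 0.978 for arrays of the same group and 0.958 to 0.966 for arrays of different groups. For ACTB, the 3' signal over the 5' signal, a measure of RNA integrity, was 1.77 ± 0.07 with DHT and 1.37 ± 0.05 in controls (SD, n = 3 each; two-sided exact permutation p = 0.1, the smallest that 3 against 3 can give). For GAPDH it was 1.06 ± 0.05 with DHT and 0.904 ± 0.044 in controls. The part of these ratios in the results below was not tested. The luminal marker KLK3 averaged 8985 ± 441 with DHT and 2186 ± 261 in controls, and the summed signal of the 7 of 8 luminal markers that had a probe set was 18158 to 19052 with DHT and 7367 to 7932 in controls. Of those 7, KLK2, KLK3 and TMPRSS2 passed as higher, HOXB13 (-0.37) and KRT8 (-0.43) as lower, and FOLH1 and KRT18 did not pass (limma). Of 17 markers of 6 other cell types, 15 had a probe set and 6 passed the filter on dim signals, and the summed signal was 484 to 563 with DHT and 527 to 559 in controls. Among them the 4 fibroblast or stroma markers summed to 165 to 226 with DHT and 248 to 249.6 in controls, and their part in the results was not tested. Most of that sum was COL1A1, which averaged 132 with DHT and 198 in controls and passed as lower (-0.54; limma adjusted p = 0.0186). COL1A2 (-0.04) and DCN (-0.10) did not pass, and LUM was below the filter.

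**Figure D1:**
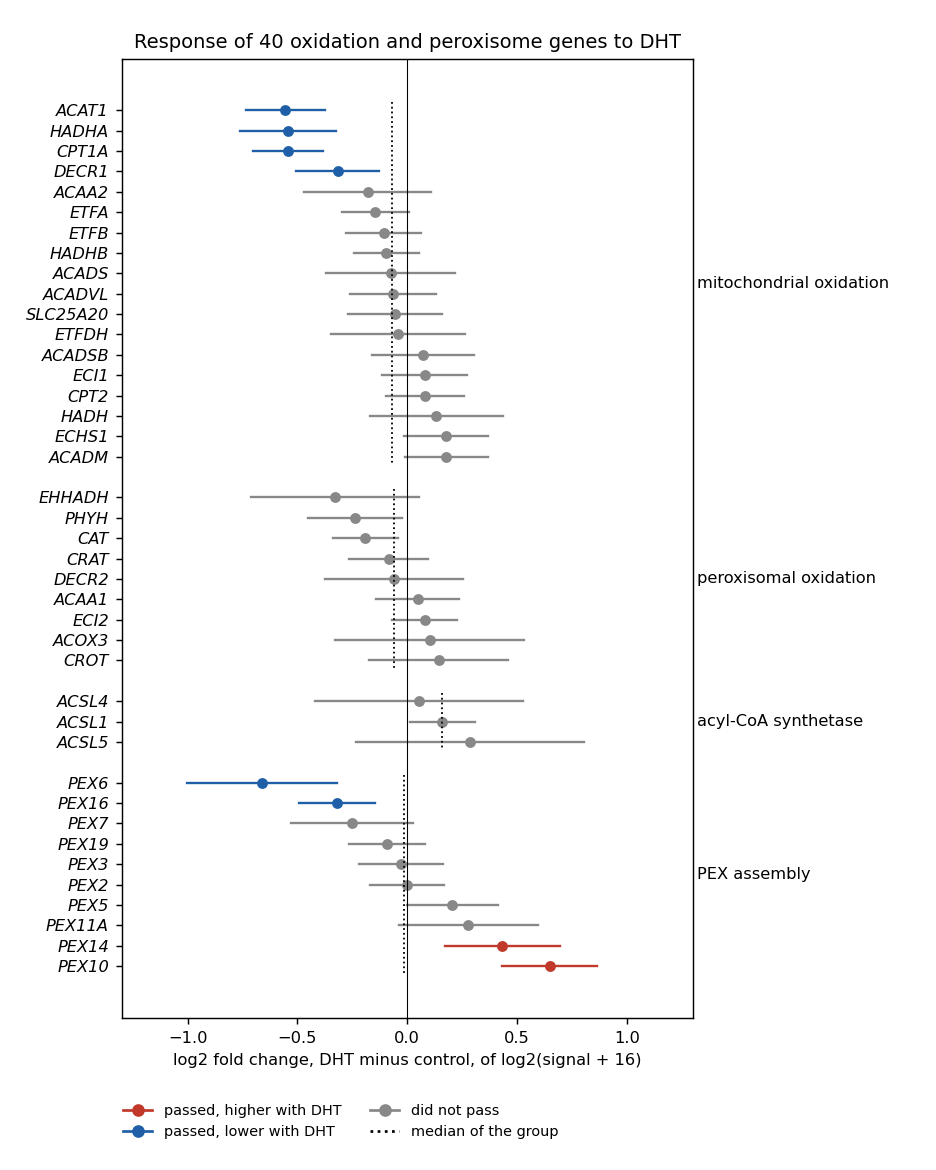
Log2 fold change (DHT minus control, on the log2(signal + 16) scale) of the 40 tested genes by role, as points with 95% intervals from limma, with a dotted line at the median of each role. The 4 falls in mitochondrial oxidation, the absence of any call among peroxisomal enzymes and synthetases, and the PEX genes lying on both sides can be seen.

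In mitochondrial oxidation, 4 of 18 genes fell and none rose (limma; at an unadjusted p under 0.05 there were 4 lower and 0 higher). Over all 14269 genes, 6.95% passed as higher and 5.91% as lower. At an unadjusted p under 0.05, 1969 of them were higher and 1732 lower. The mitochondrial genes that fell were CPT1A, HADHA, ACAT1 and DECR1, between -0.56 and -0.32 on the log2 scale. The median of the 18 was -0.07. The median deviation from the control mean was -0.08, -0.06 and -0.10 in the DHT arrays and 0.05, -0.03 and -0.03 in the control arrays, the 3 DHT arrays being the lowest.

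CPT1A makes the acylcarnitines that enter the mitochondrion and is the rate-limiting gate of the pathway. Its signal was 559.7, 561 and 522 in the DHT arrays, against 781, 826 and 806 in the control arrays. All 3 DHT arrays lay below all 3 controls, and the log2 fold change was -0.54 ± 0.07 (SE; with limma's adjusted p = 0.000694). Its 3 dimmer probe sets, at -0.07, -0.13 and 0.03, did not pass. Nor did the mean of all 4, at -0.18 (limma adjusted p = 0.220). The carnitine shuttle's other steps did not pass. SLC25A20, the carrier that exchanges acylcarnitine for carnitine, had 185, 216 and 208 with DHT and 215, 217 and 202 in controls. CPT2, which turns acylcarnitine back into acyl-CoA inside, had 312, 332 and 304 with DHT and 302, 297 and 294 in controls (0.08, 95% interval -0.10 to 0.26), with no overlap. Its other probe set had 200.5, 201.0 and 199.4 with DHT and 279.9, 211.2 and 209.0 in controls (-0.19). There the groups were apart in the opposite direction, and it did not pass either. The change of CPT1A relative to CPT2 within an array, in the brightest probe set of each, was -0.62 ± 0.04 (SE; two-sided exact permutation p = 0.1). This was 1 of 12 such pairs, chosen after their values were seen, of which 11 reached this smallest possible p (0.109 adjusted over the pairs).

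The acyl-CoA dehydrogenases, which open each round and differ in the chain length they take, did not pass. ACADM, for medium chains, had 1232, 1261 and 1323 with DHT and 1032, 1076 and 1269 in controls (0.18, 95% interval -0.01 to 0.37). ACADVL, for very long chains, had 1299, 1372 and 1102 with DHT and 1396, 1281 and 1255 in controls, and those of short chains (ACADS) and short branched chains (ACADSB) had -0.07 and 0.07. The groups overlapped for all 4 of these genes. ETFA and ETFB form the flavoprotein that collects the electrons, and ETFDH passes them to ubiquinone. ETFA had 1674, 1650.2 and 1572 with DHT and 1901, 1754 and 1765 in controls. Its groups did not overlap, but its fold change of -0.14 (95% interval -0.30 to 0.01) did not pass (limma adjusted p = 0.217), and ETFB and ETFDH had -0.11 and -0.04.

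HADHA and HADHB are the subunits of the trifunctional protein, which carries out the last steps on long chains, HADHA holding the hydratase and dehydrogenase and HADHB the thiolase. HADHA had a signal of 373, 498 and 458 with DHT, against 643, 661 and 638 in controls. Every DHT array was below every control, DHT replicate 1 the furthest, and the difference was -0.54 ± 0.10 on the log2 scale (SE; limma adjusted p = 0.005). Its other probe sets, at -0.18 and -0.27, did not pass. The one at -0.18 was of similar brightness, averaging 447 with DHT and 508 in controls, against 443 and 648 for the brightest. HADHB had 1214, 1288 and 1238 with DHT and 1375, 1299 and 1323 in controls. The groups of HADHB did not overlap either, but its change of -0.09 (95% interval -0.24 to 0.05) did not pass. The change of HADHA relative to HADHB was -0.45 ± 0.10 (SE; two-sided exact permutation p = 0.1), in 2 genes whose promoter windows overlap. This pair too was chosen after its values were seen, and its p is the smallest possible, so the test adds no separate support. HADHA did not pass when limma's prior variance had no trend with intensity (adjusted p = 0.0649).

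The soluble enzymes that follow act on shorter chains. ECHS1, the short-chain hydratase, had 2218, 2408 and 2208 with DHT and 2265, 1963 and 1824 in controls, and HADH, the short-chain hydroxyacyl dehydrogenase, had 949, 603 and 843 with DHT and 648, 749.6 and 752 in controls. Both sets of groups overlapped, at 0.18 and 0.13. Another HADH probe set had 600, 615 and 578 with DHT and 547, 559 and 501 in controls (0.15), with no overlap, and did not pass. Its dimmest had 0.05 with overlapping groups. Among thiolases, ACAT1, which splits acetoacetyl-CoA and also serves ketone body and isoleucine breakdown, had 1481, 1731 and 1464 with DHT, against 2394, 2301 and 2185 in controls. No DHT array reached the lowest control, and the log2 difference was -0.56 ± 0.08 (SE; limma's adjusted p = 0.0013). It passed in all 18 alternative settings. ACAA2, the thiolase of medium chains, had 88.3, 75.6 and 75.7 with DHT and 102, 88.4 and 87.5 in controls, and did not pass (-0.18).

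The auxiliary enzymes handle double bonds of unsaturated fatty acids. DECR1, the mitochondrial 2,4-dienoyl-CoA reductase, had 386, 363 and 368 with DHT, against 513, 429 and 465 in controls. The groups did not overlap, and it fell by 0.32 on the log2 scale (SE 0.09; limma adjusted p = 0.0344). Leaving out any 1 of the DHT arrays, or control replicate 1 or 3, ended its call (-0.25 to -0.34, adjusted p = 0.0590 to 0.114). DECR1 also did not pass with equal array medians (-0.38, adjusted p = 0.0936) or without the trend (adjusted p = 0.147). ECI1, which shifts a double bond to where the hydratase can use it, had 0.08 and did not pass.

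**Figure D2:**
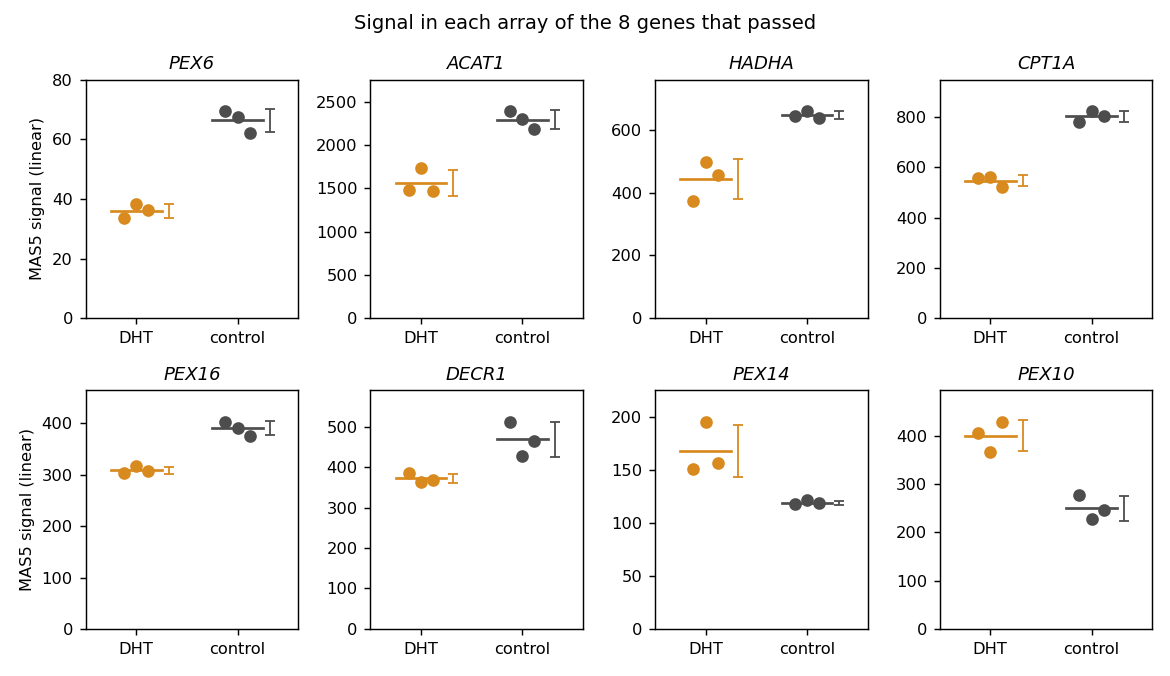
MAS5 signal (linear scale from 0) of the 8 genes that passed, one point per array, DHT left and control right, with the mean as a line and the SD (n = 3) as a bar beside it. The groups do not overlap in any panel: PEX14 and PEX10 are higher with DHT (neither passed with scaling to the spikes), PEX6, ACAT1, HADHA, CPT1A, PEX16 and DECR1 lower.

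None of the 9 peroxisomal oxidation genes tested passed in limma, and at an unadjusted p under 0.05 there were 0 higher and 2 lower (CAT and PHYH). Over all 14269 genes, 12.9% passed, and the unadjusted counts were 1969 higher and 1732 lower. The median of the 9 genes was -0.06. The median deviation from the control mean was -0.11, -0.07 and 0.02 in the DHT arrays and -0.03, 0.03 and -0.03 in controls. The median moved to -0.13 without control replicate 1, -0.00131 without control replicate 2, -0.03 without DHT replicate 1, -0.01 without DHT replicate 2 and -0.09 without DHT replicate 3. A p that misses the threshold leaves the sizes within the intervals possible.

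CAT, catalase, which breaks down hydrogen peroxide, came nearest to the threshold. Its brightest probe set had 1897, 1985 and 1911 with DHT, against 2311, 2171 and 2136 in controls. The groups did not overlap, at -0.19 (95% interval -0.34 to -0.04; limma adjusted p = 0.0986). Its other probe set had 463, 553 and 499 with DHT, against 703, 767 and 660.0 in controls, and passed over all probe sets (-0.48; limma adjusted p = 0.0059). With quantile normalisation CAT passed at -0.23 (adjusted p = 0.0129), and with the mean of both probe sets at -0.33 (adjusted p = 0.0142). PHYH, which hydroxylates phytanoyl-CoA at the start of alpha oxidation, had 601, 740.4 and 721 with DHT and 901, 777 and 759 in controls (-0.24, limma adjusted p = 0.149). EHHADH, the peroxisomal bifunctional hydratase and dehydrogenase, had 35.6, 33.9 and 39.6 with DHT and 59.3, 44.8 and 46.1 in controls (-0.33, 95% interval -0.71 to 0.05). All 3 genes had every DHT array below every control.

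The remaining peroxisomal genes lay between -0.08 and 0.14 with overlapping groups. ACAA1, the peroxisomal thiolase, had 474, 524 and 486 with DHT and 525, 445 and 466 in controls. ECI2, an isomerase found in both organelles, had 1532, 1496 and 1426 with DHT and 1377, 1433 and 1397 in controls. DECR2, the peroxisomal counterpart of DECR1, had 171, 165 and 197 with DHT and 157, 239 and 169 in controls (-0.06, 95% interval -0.37 to 0.26), which includes the value of DECR1. The carnitine transferases that export shortened chains, CRAT and CROT, had -0.08 and 0.14, and the branched-chain oxidase ACOX3 had 0.10 (95% interval -0.33 to 0.53) at signals of 39.7 to 44.7 with DHT and 28.4 to 51.5 in controls.

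Acyl-CoA synthetases attach coenzyme A to a fatty acid, the step that commits it to oxidation or to lipid synthesis. None of the 3 passed in limma, and at an unadjusted p under 0.05 there were 1 higher (ACSL1) and 0 lower. Over all 14269 genes, 12.9% passed, and the unadjusted counts were 1969 higher and 1732 lower. ACSL1 had 1659, 1624 and 1648 with DHT, against 1464, 1414 and 1533 in controls. Its groups did not overlap (0.16, limma adjusted p = 0.158), but its other probe set, of similar brightness, had -0.06. ACSL4, which prefers arachidonic acid, had 19.4 to 26.0 with DHT and 17.2 to 22.2 in controls, and ACSL5 had 18.5 to 41.0 with DHT and 19.6 to 25.5 in controls. These signals lie close to the limit of 17.3 below which probe sets were left out, and the 95% intervals of the log2 fold change were -0.42 to 0.53 for ACSL4 and -0.23 to 0.81 for ACSL5.

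Of the 10 PEX genes tested, 2 rose, 2 fell and 6 did not pass, and their median was -0.01. Over all genes, 6.95% passed as higher and 5.91% as lower. PEX proteins fall into receptors for imported enzymes (PEX5, PEX7), a docking complex (PEX14 with PEX13), a ubiquitin ligase of RING proteins (PEX2 and PEX10 among them), an ATPase that pulls the receptor back out (PEX6, anchored by PEX26), factors that insert membrane proteins (PEX3, PEX16, PEX19) and division factors (PEX11A). The calls were spread over these complexes and went both ways.

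PEX10, a RING subunit of the ligase, had a signal of 405, 366 and 429 with DHT, against 277, 226 and 245 in controls. The groups were well apart, and it rose by 0.65 ± 0.10 on the log2 scale (SE; limma adjusted p = 0.00153). Its other probe set gave 448, 307 and 460.1 with DHT and 241, 209 and 251 in controls (0.74; limma adjusted p = 0.00665 over probe sets). PEX2, its partner in the ligase, had 508, 559.9 and 496 with DHT and 519, 524 and 519 in controls, a change of 0.000307 (95% interval -0.17 to 0.17). The change of PEX10 relative to PEX2 was 0.65 ± 0.14 (SE; two-sided exact permutation p = 0.1). Like the other pairs, it was chosen after the values were seen, and its p is the smallest possible, so the test adds no separate support. Scaled to the hybridisation spikes, PEX10 had 0.12 and did not pass (adjusted p = 0.494), which is 0.57 above the median of all genes in that scaling.

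PEX14, the docking protein to which cargo-loaded PEX5 binds, had 152, 196 and 157 with DHT, against 118, 122 and 119 in controls. All DHT arrays were above all controls, DHT replicate 2 the highest, and it rose by 0.43 ± 0.12 (SE; limma adjusted p = 0.0342). A probe set of nearly the same brightness had 131, 150.3 and 141 with DHT and 139.8, 124 and 166 in controls, with overlapping groups and -0.02, and the mean of both did not pass (0.21, adjusted p = 0.228). PEX14 lost its call when any 1 control array, DHT replicate 2 or DHT replicate 3 was left out (0.33 to 0.48, adjusted p = 0.0552 to 0.131), and had -0.06 with spike scaling. It did not pass with equal array medians (adjusted p = 0.138) or without the trend (adjusted p = 0.0966) either.

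PEX6, the ATPase that recycles PEX5, had 33.6, 38.2 and 36.4 with DHT, against 69.6, 67.4 and 62.2 in controls. The highest DHT array stayed well below the lowest control, and the difference was -0.66 ± 0.16 on the log2 scale (SE; limma adjusted p = 0.0176). Its other probe set had 3.82, 6.51 and 5.75 with DHT, below the limit of 17.3, against 74.2, 53.8 and 58.2 in controls (-1.86; limma adjusted p = 0.000306 over probe sets). Without DHT replicate 1 PEX6 had -0.63 (adjusted p = 0.0502), and without control replicate 1 -0.63 (adjusted p = 0.0633). PEX26, the membrane anchor of this ATPase and not on the list of 42, had 135, 122 and 148 with DHT, against 183, 229 and 221 in controls. It fell by 0.59 on the log2 scale (SE 0.12; limma adjusted p = 0.0071), but the mean of its 3 probe sets did not pass (-0.36, adjusted p = 0.148).

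PEX16, a membrane protein that recruits PEX3, had 304, 317 and 307 with DHT, against 404, 391.6 and 376 in controls. With no overlap, it fell by 0.32 (SE 0.08; limma adjusted p = 0.0212). Of its other probe sets, one had 115, 81.5 and 103 with DHT and 161, 156 and 132 in controls (-0.52; limma adjusted p = 0.0341 over probe sets), and the dimmest had -0.04. PEX16 lost its call when DHT replicate 1 or 3 or control replicate 1 or 2 was left out (-0.30 to -0.32, adjusted p = 0.0594 to 0.0657). Nor did it pass when its 3 probe sets were averaged (-0.29, adjusted p = 0.0853), with equal array medians (adjusted p = 0.0660) or without the trend (adjusted p = 0.106). PEX3 and PEX19, which work with it in inserting membrane proteins, had -0.03 and -0.09 with overlapping groups. With control replicate 1 left out, 1 PEX gene (PEX10) rose and 0 fell, and with DHT replicate 1 left out 2 rose and 0 fell. In the fits without control replicate 2 or 3, or DHT replicate 2 or 3, 1 rose (PEX10) and 1 or 2 fell.

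PEX5, the receptor for the C-terminal import signal, gave opposite values from its probe sets. The brighter one had 451, 366 and 449.6 with DHT and 354, 369 and 366 in controls (0.20; limma adjusted p = 0.197). The dimmer one had 44.5, 31.6 and 44.8 with DHT, against 82.1, 85.8 and 101 in controls, and passed as lower (-0.91; limma adjusted p = 0.00492 over probe sets). The change of the dimmer relative to the brighter probe set was -1.12 ± 0.07 (SE; two-sided exact permutation p = 0.1). Like the other pairs, these probe sets were compared after their values were seen, and the p is the smallest possible. PEX7, the receptor for the N-terminal signal, had 244, 193 and 216 with DHT and 240.0, 235 and 316 in controls (-0.25, 95% interval -0.53 to 0.02). PEX11A, which promotes division of peroxisomes, had 182, 135 and 170.0 with DHT and 109, 156 and 128 in controls (0.28, 95% interval -0.04 to 0.60). The groups of both genes overlapped.

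**Figure D3:**
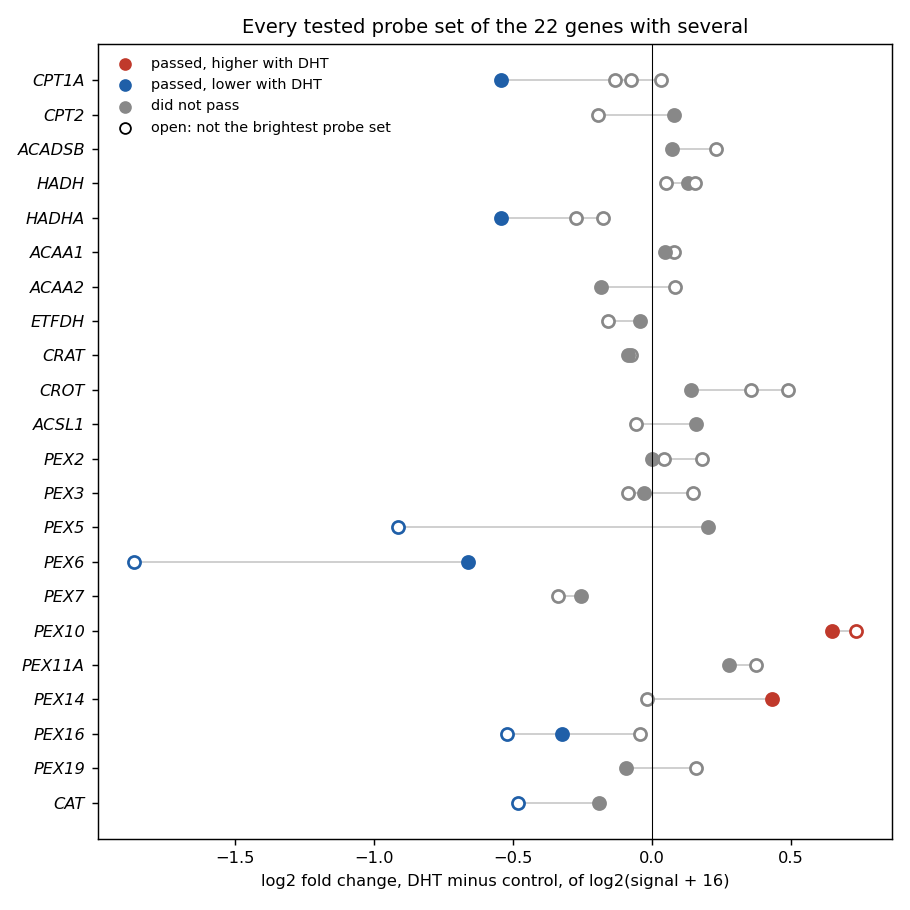
Log2 fold change (DHT minus control) of every tested probe set of the 22 genes with more than 1, filled for the brightest probe set and open for the others, coloured by the call adjusted over all probe sets. The widest spans are those of PEX6 (1.20) and PEX5 (1.12), and PEX10 is the gene whose probe sets all passed as higher. The dimmer PEX6 probe set had DHT signals below the filter limit of 17.3.

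Across probe sets, 13 of the 70 that read these genes passed, 3 higher and 10 lower, against 10.3% of all 32768 probe sets, 5.09% higher and 5.25% lower. They came from 10 genes, the 8 named above with CAT and PEX5. Of the 22 genes with several tested probe sets, 8 had values on both sides of 0. PEX10 and PEX6 were the genes for which every one of several probe sets passed. The dimmer PEX6 probe set had DHT signals of 3.82 to 6.51, below the filter limit of 17.3. It was kept through its control signals of 53.8 to 74.2, so the size of its fall is uncertain.

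Other genes of these pathways were read from 5 lists. For comparison with the counts below, 6.95% of all 14269 genes passed as higher and 5.91% as lower. At an unadjusted p under 0.05, 1969 of all genes were higher and 1732 lower. Of 10 tested genes of other mitochondrial oxidation none passed in limma (1 higher and 1 lower at an unadjusted p under 0.05). The nearest to the threshold were ACAD8 (-0.24) and IVD (0.16), dehydrogenases of branched-chain amino acid breakdown, with SLC22A5, the carnitine importer, at 0.20 and AUH at -0.14. The other probe sets of IVD had -0.28 (limma adjusted p = 0.0604 over probe sets), with no overlap, and -0.05. Of 19 tested peroxisomal enzymes and carriers outside the 42, 2 rose and 2 fell. HSD17B4, the multifunctional enzyme of branched and very long chains, had 1892, 1758 and 1716 with DHT, against 1233, 1273 and 1216 in controls, and rose (0.52 ± 0.07; limma adjusted p = 0.000723). HACL1, the lyase that acts after PHYH in alpha oxidation, had 190.4, 224 and 238 with DHT, against 390.3, 360.5 and 361 in controls, and fell (-0.73 ± 0.10; limma adjusted p = 0.000741). It passed in all 18 alternative settings, and both genes had groups far apart.

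IDH1, the NADP-dependent isocitrate dehydrogenase of cytosol and peroxisome, had 2770.2, 2594 and 2847 with DHT, against 2279.6, 2159 and 2033 in controls, and rose (0.34; limma adjusted p = 0.0115, and 0.0524 without DHT replicate 3). IDH1 did not pass with equal array medians (adjusted p = 0.106), without the trend (adjusted p = 0.110) or when its 3 probe sets were averaged (0.25, adjusted p = 0.105). Of its other probe sets, the brighter passed as higher (0.31; limma adjusted p = 0.0120 over probe sets). The dimmer had 0.10 and did not pass. LONP2, the peroxisomal protease, fell in its brightest probe set (-0.34; limma adjusted p = 0.0294) while another passed as higher (0.40; limma adjusted p = 0.0322 over probe sets). The mean of its 4 probe sets did not pass (-0.08, adjusted p = 0.593). LONP2 lost its call when replicate 2 or 3 of either group was left out (adjusted p = 0.0603 to 0.114), without the filter (0.0501), with equal array medians (0.0530) and without the trend (0.154). Of the 2 tested genes among the other PEX genes, 1 fell (PEX26). Of 7 tested genes of activation, uptake and acyl-CoA binding, 2 rose. SLC27A2, a very long chain acyl-CoA synthetase, had 324, 307 and 281 with DHT, against 215, 218 and 209 in controls (0.48 ± 0.09; limma adjusted p = 0.00541). DBI, the acyl-CoA binding protein, had 3450.5, 3070.2 and 2975 with DHT, against 2375, 2352 and 1922 in controls (0.51 ± 0.10; limma adjusted p = 0.005). With equal array medians SLC27A2 did not pass (0.42, adjusted p = 0.0590), and without the trend DBI did not (adjusted p = 0.0719). All probe sets of DBI end in _x_at, the maker's mark for probes that may also bind other transcripts. Scaled to the hybridisation spikes, HSD17B4, IDH1, SLC27A2 and DBI had -0.02, -0.21, -0.04 and -0.03, against -0.45 for the median of all genes.

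**Figure D4:**
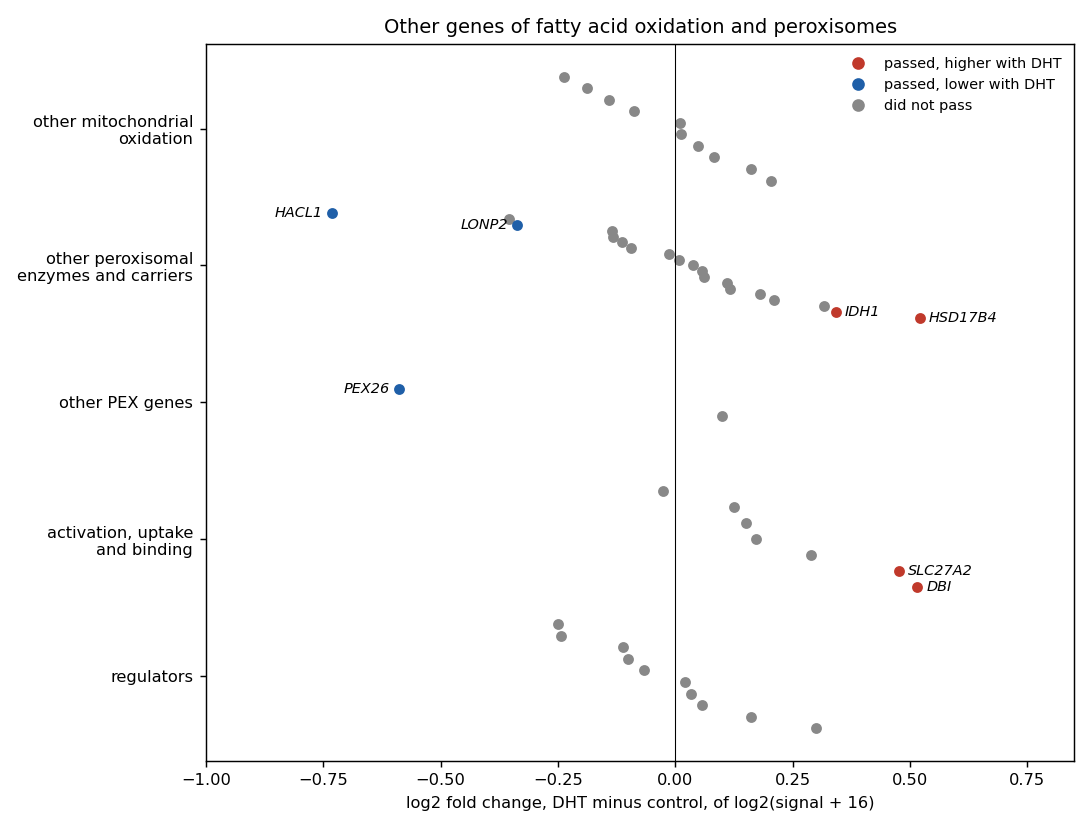
Log2 fold change (DHT minus control) of other genes of fatty acid oxidation and peroxisomes, one point per tested gene in 5 lists, with the genes that passed named. HSD17B4, IDH1, SLC27A2 and DBI lie to the right (higher with DHT, though not with scaling to the spikes), HACL1, PEX26 and LONP2 to the left.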

How the data were processed

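Biotin-labelled targets from total RNA of 6 LNCaP cultures were hybridised to single-channel Affymetrix arrays, as the labels' protocols state. The values deposited by the authors are linear signal intensities, 1 column per array. MAS5 is the tool named in the submitters' processing notes, with no version given in the sources used here. Its method subtracts a mismatch or estimated background, so dim signals are noisy. The mean of each array after trimming 2% at both ends was 100.03, and no further scaling was applied. Detection calls were not used here. The number of arrays limits the precision.

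Of 54675 probe sets, 62 array controls were left out, and 41097 name 1 gene in the platform annotation, 1801 several and 11777 none. Gene identifiers matched a GRCh38.p14 gene table for 41043, with 0 symbols changed. The lowest 40% by mean log2(signal + 16) were removed (limit 17.3), leaving 32768. Each gene took the value of its brightest probe set, one ending in _x_at only where no other passed. limma 3.58.1 in R 4.3.3 (eBayes with an intensity trend; 4 residual degrees of freedom) tested log2(signal + 16), a scale that understates changes of dim genes, with Benjamini-Hochberg adjustment over 14269 genes or over probe sets. With the variance borrowed across probe sets, the median total was 11.4 degrees of freedom. Exact permutation tests used scipy 1.17.1. The procedure was tested on simulated data with independent normal noise whose spread followed signal intensity. That setting cannot check the choice of an intensity trend in the fit. Members, lists and tests were chosen with earlier results of these data known. Every member is accounted for; values by array are given for genes that passed and for partners in the same complex or step, and others were added to show a range. From each further list the genes that passed, or up to 4 nearest to it, are named; PPARA, RXRA and ABCD3 were added after their values were seen. Some genes of the further lists are not reported here. Alternatives were pseudocounts of 1 and 64, no filter or one at 60%, quantile normalisation, equal medians, spike scaling, the replicate number as a block, no trend, a robust fit, other rules for probe sets, ECI2 and CRAT counted as mitochondrial, and leaving out each array.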

Additional observations from a re-analysis of the deposited data

How the results depend on the processing

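With the replicate number as a block, 2 of the 40 genes rose and 6 fell, the 8 genes that passed all passed again, and no call among the 40 changed (1698 genes over all). Deviations of same-numbered arrays from their group means correlated at -0.01, -0.04 and 0.02, and those of differently numbered arrays at -0.06 to 0.07. With 3 arrays per group, this cannot decide whether same-numbered cultures were handled together. With a pseudocount of 1 or 64, without the filter or with one at 60%, with a robust fit, or with _x_at probe sets on equal terms, the counts by role were within 1.5 times the main ones. With equal array medians, 1142 genes passed over all (against 1834), and 1 of the 40 rose. The median was -0.11 for the 40, -0.13 for mitochondrial and -0.12 for peroxisomal oxidation, 0.10 for synthetases and -0.0756 for PEX genes. Of the PEX genes, 1 rose and 1 fell. The median of all genes was lowered too, from 0.02 to -0.03. Without the intensity trend, 671 genes passed, and 1 of the 40 rose and 3 fell (2 mitochondrial; PEX genes 1 higher and 1 lower), with 6 probe sets in all. With probe sets of a gene averaged, 1 of the 40 rose (a PEX gene) and 5 fell (3 mitochondrial, without CPT1A, 1 peroxisomal and 1 PEX gene). Over all genes, 746 rose and 732 fell under this rule. The medians of synthetases and PEX genes were 0.0540 and 0.0229. With quantile normalisation 1 peroxisomal gene fell (987 higher and 861 lower over all genes). Counting ECI2 and CRAT as mitochondrial changed no count of calls. The cause of these changes was not tested.

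With scaling to the spikes, 7582 genes passed over all; of the 40, 0 rose and 32 fell, as every value was lowered. By role 18 mitochondrial genes, 7 peroxisomal genes, 1 synthetase and 6 PEX genes fell, none of the PEX genes rose (0), and 50 probe sets passed. The median was -0.56 for the 40, -0.59 for mitochondrial and -0.56 for peroxisomal oxidation, -0.26 for synthetases and -0.54 for PEX genes. Among genes that passed on either scale, signs turned for CPT2 (-0.44), ACADM (-0.37), ACADSB (-0.44), HADH (-0.41), ECHS1 (-0.37), ECI1 (-0.45), ECI2 (-0.46), ACAA1 (-0.49), ACSL1 (-0.39), PEX2 (-0.53), PEX14 (-0.0612), HSD17B4 (-0.0244), IDH1 (-0.21), SLC27A2 (-0.0419) and DBI (-0.0333).

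Leaving out 1 array left 1164 to 1402 genes passing over all (over 1.5 times fewer without control replicate 3 and, at 1180, without DHT replicate 3), 1 to 2 of the 40 higher and 3 to 5 lower, and 8 to 10 probe sets. Of mitochondrial genes 0 rose and 3 to 4 fell, of peroxisomal genes and synthetases 0 to 0 either way, and of PEX genes 1 to 2 rose and 0 to 2 fell. The medians ran from -0.0480 to -0.00388 for the 40, -0.12 to -0.0532 for mitochondrial and -0.13 to -0.00131 for peroxisomal oxidation, 0.13 to 0.19 for synthetases and -0.0439 to 0.00813 for PEX genes. The 3 arrays per group and dim signals (ACSL4, ACSL5, ACOX3, EHHADH) limit what could be measured.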

Other observations

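Among regulators of these pathways, none of 10 tested genes passed in limma, with 1 higher (RXRB) and 1 lower (ESRRA) at an unadjusted p under 0.05. Over all 14269 genes, 12.9% passed, and the unadjusted counts were 1969 higher and 1732 lower. ESRRA, a nuclear receptor of mitochondrial genes, had 213, 175 and 172 with DHT, against 229, 228 and 215 in controls (-0.25; limma adjusted p = 0.154). PPARA, the nuclear receptor best known for inducing fatty acid oxidation in liver and named here after its values were seen, had 74.8, 68.0 and 70.6 with DHT and 79.2, 81.6 and 73.9 in controls (-0.11) in its brightest probe set, and 0.22, 0.14, 0.42 and 0.17 in the other 4, none of which passed. Its partner RXRA had 0.06 in its brightest probe set and -0.48 in the other (limma adjusted p = 0.0798 over probe sets). RXRB had 350.3, 375 and 258 with DHT and 256, 263 and 261 in controls (0.30; limma adjusted p = 0.147), while another of its probe sets had 66.5, 64.4 and 69.0 with DHT, against 117, 105 and 105 in controls, and passed as lower (-0.60; limma adjusted p = 0.0111 over probe sets). ABCD3, a peroxisomal importer of acyl-CoA, likewise had 0.11 in its brightest probe set and -0.42 in another, which passed (limma adjusted p = 0.0138 over probe sets). The catalytic subunits of the AMP-activated kinase, PRKAA1 and PRKAA2, had -0.10 and 0.16 in their brightest probe sets, and no probe set of either passed.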
